A study of Mus musculus with 12 samples.

Results

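The replication-dependent histone genes were followed here in total RNA and in ribosome-protected fragments (RPF) of mouse CD4+ T cells. They were taken as the rows with a single identifier, a protein-coding annotation and a symbol beginning with Hist1h, Hist2h, Hist3h or Hist4h. This gave 65 genes among the 45669 rows of the count table, 21021 of which were protein-coding with 1 identifier. By class the 65 were 6 linker histone H1 genes, 18 H2A, 16 H2B, 12 H3 and 13 H4 genes. By position, 52 lay in the Hist1 cluster on chromosome 13, 10 in the Hist2 cluster on chromosome 3, 2 in the Hist3 cluster on chromosome 11, and Hist4h4 stood alone on chromosome 6. The cells came from lymph nodes of C57BL6 mice, 12 weeks old, either homozygous for Anaef (Anaef/Anaef), a point-mutant allele of Rasgrp1, or wild type (WT/WT). Rasgrp1 encodes an exchange factor that activates Ras below the T cell receptor, and gene counts do not show whether the allele is present. The cells were isolated by magnetic removal of other cells, so cells of other types that escaped removal can be present in both genotypes. Total RNA was sequenced from 4 Anaef libraries (replicates 5 to 8) and 4 WT libraries (replicates 1 to 4), each from 20000 cells. RPF were sequenced from 2 Anaef pools (3B and 4B) and 2 WT pools (1B and 2B), each pool made of 2 samples and treated with cycloheximide before lysis. The labels do not say which samples entered which pool or that each came from 1 animal, so p-values measure the spread between these samples.

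Replication-dependent histones package newly copied DNA, and their mRNAs accumulate in S phase and are degraded when DNA synthesis ends. Their mRNAs are the metazoan mRNAs that normally end without a poly(A) tail: a short stem-loop after the stop codon is bound by SLBP, and the transcript is cut just downstream of it. Replacement histones such as H3.3 (H3f3a, H3f3b) and H2A.Z (H2afz) are made outside S phase from ordinary polyadenylated mRNAs. The total RNA libraries were made from RNA taken with an oligo(dT) bead kit, which binds poly(A), whereas RPF were recovered by nuclease digestion and sedimentation with no such step. The comparison of the assays therefore asks how far the histone mRNAs were seen in footprints and not in the captured RNA, and the comparison of the genotypes asks whether either level moved with Anaef.

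The stem-loop was searched after each annotated stop codon in GENCODE M21 transcripts (GRCm38) as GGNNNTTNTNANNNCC on the transcript strand alone, N being any base. It was found in 44 of the 65 genes, with its first base 22 to 59 bases after the stop codon. Of 48 genes with at least 50 bases annotated there, 44 held it and Hist1h2bc, Hist1h2bq, Hist1h2br and Hist2h2be did not. Hist1h2bq and Hist1h2br reach 50 bases only in a transcript with a longer coding region, and their other transcript has 0 bases there. None of the 17 genes with fewer than 50 annotated bases held the motif. Most of these have too few annotated bases to hold its 16 bases, so its absence there says nothing about the gene. In the last 100 bases of a transcript, the motif occurred in 70 of 21747 protein-coding genes (0.322%), 22 of which were members. The RefSeq gene end lay 0 to 10 bases after the motif in 41 of the 44 genes, whereas GENCODE gave 17 members a transcript of at least 1000 bases. The motif does not exclude a polyadenylation hexamer (AATAAA or ATTAAA) at the annotated end, which Hist4h4 and the replacement histone gene H2afx also have. The stem-loops of 1 gene from each class, of Hist4h4 and of H2afx are shown with the motif in capitals.
Hist1h1c (chr13:23739507-23739532, plus strand): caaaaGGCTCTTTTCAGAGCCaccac
Hist2h2aa2 (chr3:96239779-96239804, minus strand): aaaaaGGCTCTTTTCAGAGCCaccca
Hist1h2bg (chr13:23571838-23571863, plus strand): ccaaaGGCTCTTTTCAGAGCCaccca
Hist1h3b (chr13:23752815-23752840, plus strand): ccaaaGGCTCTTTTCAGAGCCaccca
Hist1h4c (chr13:23698084-23698109, minus strand): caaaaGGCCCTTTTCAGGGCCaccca
Hist4h4 (chr6:136803993-136804018, minus strand): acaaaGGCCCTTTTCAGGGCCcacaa
H2afx (chr9:44335235-44335260, plus strand): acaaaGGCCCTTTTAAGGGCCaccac

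The commonest motif, that of Hist1h3b, was the first match in 24 members. A polyadenylation hexamer, AATAAA or ATTAAA, lay in the last 50 bases of an annotated transcript in 17 members and in 10 of 11 replacement histone genes. H2afx, the H2A.X gene, was the 1 replacement histone gene with the stem-loop. The annotated ends of Hist2h2be, Hist4h4 and the replacement gene H3f3a are shown with the hexamer in capitals, because the first 2 of these set themselves apart from the other members below.
Hist2h2be (chr3:96223705-96223734, plus strand): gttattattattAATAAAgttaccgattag
Hist4h4 (chr6:136801553-136801573, minus strand): tagaggagatgaAATAAAtac
H3f3a (chr1:180800836-180800865, minus strand): aatttgaaaaatAATAAAagtaccaataga

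The members are near copies of each other, which limits what any single row measures. Their 65 coding regions held 61 distinct sequences, and a median of 88.3% of a member's 28-base words, about the length of a footprint, occurred in another gene. For words of 50 bases, the read length of the total RNA, the median was 75.4%. In 21 members over 90% of the 28-base words were shared, and in 12 members under 50% were (Hist1h1a to Hist1h1e, Hist1h1t, Hist1h2aa, Hist1h2ba, Hist2h2ab, Hist2h2be, Hist2h4 and Hist4h4). The rows of Hist1h2bq and Hist1h2br held equal counts in 9 of the 12 libraries. The coding words found in the largest number of members of a class show the extent of the sharing. The H3 word occurred in all 12 H3 genes, the H2B word in 15 of 16 with Hist2h2be the exception, and the H4 word in 12 of 13 with Hist4h4 the exception.
H3 word: aagctgccgttccagcgcctggtgcgcg
H2B word: cgcattacaacaagcgctcgaccatcac
H4 word: ggtgtgctgaaggtgttcctggagaacg
The sources do not say how the counting placed a read that matches several genes, or whether it used strand. Counts of members are therefore counts of rows that share reads, not of independent genes.

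RPF libraries held 2868943 to 3464868 counts in Anaef and 4044330 to 7009342 in WT. Total RNA libraries were deeper, with 18580747 to 39467754 counts in Anaef and 15326842 to 40046317 in WT. Even so, the median member had 3343 counts in an RPF library and 27 in a total RNA library. The 10 genes listed as CD4 T cell markers, led by Trbc2 and Trbc1, summed to 12285 to 12522 CPM in Anaef RPF and 10686 to 12501 in WT RPF. Cd8a and Cd8b1 summed to 17.1 to 21.9 CPM over all 4 pools. B and plasma cell markers summed to 2604 to 7303 CPM in Anaef RPF and 11576 to 23289 in WT RPF. Most of the 10 genes are not particular to CD4 T cells, so these sums do not measure purity. CPM here are counts per 1000000 of a TMM-scaled library size, set within each assay, so a CPM of RPF and a CPM of total RNA are on separate scales. Processed pseudogenes with at least 400 total RNA counts had no RPF count in 1548 of 1615 rows and protein-coding genes in 394 of 9994. The RPF columns are named as masked in the labels, without a word on what was masked.

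The histone rows were far more abundant in footprints than in total RNA in both genotypes. Summed over the members, they made up 5.54% and 6.37% of RPF counts in the Anaef pools and 4.61% and 4.98% in the WT pools, against 0.00473% to 0.0214% of total RNA counts in Anaef and 0.00751% to 0.0140% in WT. These sums can count the same read at several copies. The 55 members that passed the filter on low counts in total RNA alone gave a median log2 ratio of RPF to total RNA of 8.66 in Anaef and 8.59 in WT. Over all genes tested the median was -1.79 in Anaef and -1.62 in WT, and over protein-coding genes that passed the same filter it was -0.54 and -0.42. By edgeR's quasi-likelihood test with Benjamini-Hochberg adjustment at 0.05 over all genes, 54 of the 55 were higher in RPF and 1 was lower, in each genotype. Of all 18032 genes tested in Anaef 16.4% were called higher in RPF and 50.8% lower, and of 17775 in WT 19.6% were called higher and 54.4% lower. Among protein-coding genes that passed the filter on total RNA alone, a log2 ratio above 6 was reached by 52 of the 55 members in each genotype and by 10 other genes in Anaef and 3 in WT. Among the same genes, members were 47 of the 50 highest ratios in Anaef and 49 of 50 in WT. The assays also differ in library kit, length of the sequenced fragments, cell number and masking, which cannot be told apart here from the capture of poly(A) RNA. Among the 55, the 8 members with under 50% shared words had lower median log2 ratios, 6.58 in Anaef and 7.69 in WT.

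**Figure D1:**
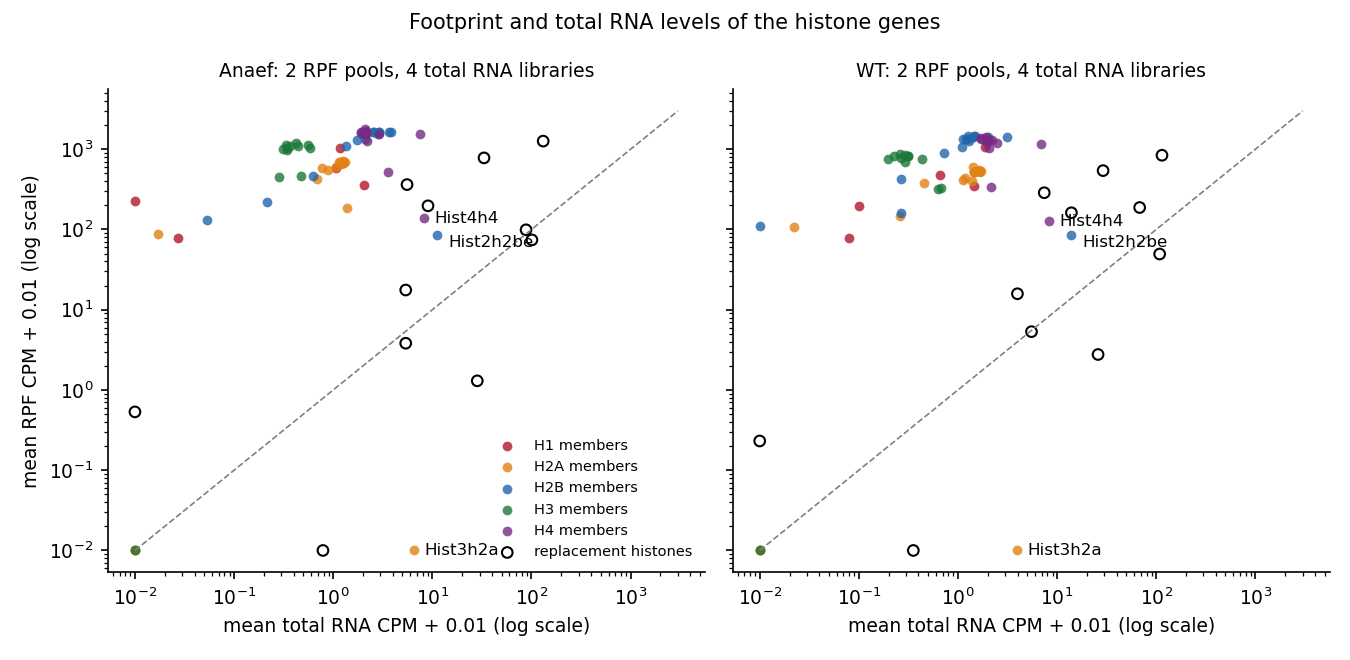
Mean RPF CPM (vertical) against mean total RNA CPM (horizontal), both log scales with 0.01 added, in Anaef (left) and WT (right); points are histone genes coloured by class, open circles are replacement histones and the dashed line marks equal CPM. Nearly all members lie at the upper left, Hist2h2be and Hist4h4 lie nearest to the replacement histones, and Hist3h2a lies at the bottom with no RPF count.

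Among the core histones, H3 rows stood highest, with a median log2 ratio of 10.61 in Anaef and 10.47 in WT over the 9 that passed. Hist1h3b had 1138 and 1236 RPF CPM in Anaef and 847 and 879 in WT. In total RNA it had 0.423, 0.413, 0.160 and 0.656 CPM in Anaef and 0.213, 0.479, 0.0791 and 0.240 in WT. No total RNA library of either genotype came near 1 CPM for this gene, and its log2 ratio was 10.75 ± 0.41 (SE) in Anaef and 10.80 ± 0.39 in WT (edgeR adjusted p = 2.86e-06 and 2.74e-06). Hist1h3c and Hist1h3d, which passed the filter only through RPF, had log2 ratios of 11.08 and 11.04 in Anaef and 10.96 and 10.86 in WT. Both were named for large ratios, so these high values follow from how they were chosen. Hist1h3f, another of the 3 H3 rows with the most footprints, had 1061 and 1216 RPF CPM in Anaef and 851 and 817 in WT. The H3 rows share most of their words, and those of Hist1h3b, Hist1h3c, Hist1h3d and Hist1h3f were 85.4% to 95.1% shared.

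H4 and H2B rows had the most footprints per coding length. Hist1h4h, the most abundant member per coding length, averaged 5715 RPF CPM per kb of coding sequence in Anaef and 4585 in WT. It had 1685 and 1847 RPF CPM in Anaef and 1244 and 1590 in WT. Its total RNA level was 3.80, 0.757, 1.54 and 2.22 CPM in Anaef and 1.31, 2.20, 2.69 and 1.52 in WT. The log2 ratio was 9.02 ± 0.53 in Anaef and 8.83 ± 0.32 in WT (edgeR adjusted p = 6.36e-06 and 2.74e-06). Hist1h4c and Hist1h4n lay beside it, with log2 ratios of 8.89 and 8.98 in Anaef and 8.70 and 8.95 in WT. The median over the 13 H4 rows was 8.85 in Anaef and 8.59 in WT. Of the H2B rows, Hist1h2bg had 1570 and 1730 RPF CPM in Anaef and 1488 and 1438 in WT, and Hist1h2be and Hist1h2bq were close to it with 1521 to 1805 CPM in Anaef and 1366 to 1525 in WT. Their log2 ratios were 8.71, 8.06 and 8.49 in Anaef and 9.45, 8.10 and 9.19 in WT. The 14 H2B rows that passed had a median of 8.67 in Anaef and 9.28 in WT.

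H2A and H1 rows had fewer footprints. Hist1h2ad had 630 and 808 RPF CPM in Anaef and 589 and 513 in WT, with log2 ratios of 8.46 ± 0.38 in Anaef and 7.64 ± 0.27 in WT (edgeR adjusted p = 3.80e-06 and 2.74e-06). Hist1h2ai and Hist2h2aa2, the other abundant H2A rows, had log2 ratios of 8.42 and 8.29 in Anaef and 7.65 and 8.02 in WT. The median over the 16 H2A rows was 8.42 in Anaef and 7.68 in WT. The H1 genes encode linker histones, which bind DNA between nucleosomes, and their sequences are shared least, so each row is closer to a measurement of 1 gene. Hist1h1c had 886 and 1169 RPF CPM in Anaef and 1202 and 937 in WT. In total RNA it had 0.423, 1.55, 1.47 and 1.25 CPM in Anaef and 0.986, 1.83, 3.80 and 0.801 in WT, and the log2 ratio was 8.97 ± 0.41 in Anaef and 8.55 ± 0.58 in WT (edgeR adjusted p = 3.80e-06 and 1.22e-05). Hist1h1d and Hist1h1e had log2 ratios of 8.33 and 6.68 in Anaef and 8.73 and 7.12 in WT.

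Some members were absent or nearly absent from total RNA while their footprints were plain. Hist1h1b, Hist1h1a, Hist2h2bb and Hist1h2aa passed the filter on low counts only through RPF and were named for large ratios. Their high ratios therefore follow from how they were chosen. Hist1h1b had 1451 RPF counts over the Anaef pools and 2249 over the WT pools, against 0 total RNA counts over the 4 Anaef libraries and 15 over the 4 WT libraries. Its footprints were at least 5735-fold higher than total RNA in Anaef, taking 3 counts over the group as the floor, and the ratio was 1019 in WT (counting interval 616 to 1824). Hist1h1a had 2 total RNA counts in Anaef and 12 in WT, and its ratio was 2893 in Anaef (796.6 to 23958) and 500.1 in WT (285 to 971). Hist2h2bb had 5 total RNA counts in Anaef and 0 in WT, with a ratio of 1987 in Anaef (848 to 6136) and at least 2635 in WT. Of its 28-base coding words 56.5% also occur in the noncoding gene Gm42743. Hist1h2aa, whose protein is known from testis, had 1 total RNA count in Anaef and 2 in WT, and ratios of 6640 (1187 to 262734) and 4139 (1143 to 34213). These intervals, at 95%, and the floor cover counting error only, and PCR copies of a molecule cannot be told from separate molecules. Hist1h1t, the testis H1 gene, had no count in any of the 12 libraries, and Hist2h2aa1 and Hist2h3c1 had none either. The 0 of Hist1h1t allows up to 3 counts in a library. Hist2h2aa1 has the same coding sequence as Hist2h2aa2, and all coding words of Hist2h3c1 occur in other genes, so their 0 sets no such limit. Hist1h2bh and Hist1h2bm, which the annotation also holds, were not analysed here.

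**Figure D2:**
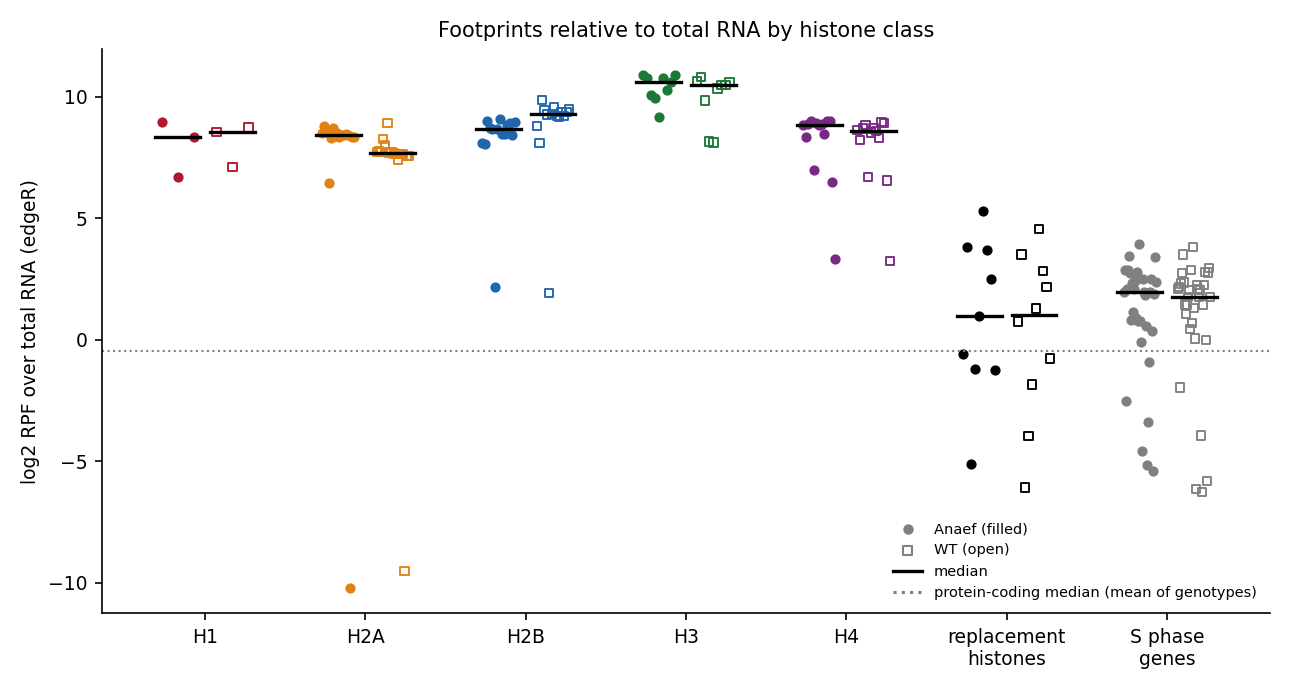
Log2 ratio of RPF to total RNA (edgeR) for each gene that passed the filter in total RNA, by histone class, with replacement histones and S phase genes; filled circles are Anaef, open squares WT, bars medians, and the dotted line the median of protein-coding genes averaged over the genotypes. The class medians of the members lie between 7.68 and 10.61 in both genotypes, above every replacement histone and S phase gene shown; Hist2h2be, Hist4h4 and Hist3h2a are the low points in H2B, H4 and H2A.

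A pair of members had far lower ratios than the rest of their classes. Hist2h2be, an H2B gene studied in mouse olfactory neurons, had 90.04 and 79.9 RPF CPM in Anaef and 79.4 and 92.5 in WT. It had 7.50, 9.50, 13.5 and 14.1 total RNA CPM in Anaef and 10.4, 16.1, 14.2 and 14.5 in WT, and its log2 ratio was 2.18 ± 0.31 in Anaef and 1.92 ± 0.22 in WT (edgeR adjusted p = 0.000428 and 0.00013). Hist4h4, chosen after its values were seen, had 145 and 129.8 RPF CPM in Anaef and 95.2 and 159 in WT. Its total RNA level was 10.03, 6.47, 6.62 and 9.47 CPM in Anaef and 6.72, 7.64, 9.41 and 9.05 in WT, with a log2 ratio of 3.33 ± 0.26 in Anaef and 3.24 ± 0.25 in WT (edgeR adjusted p = 2.2e-05 and 2.19e-05). Per kb of coding sequence, Hist2h2be averaged 225 RPF CPM in Anaef and 227 in WT, against 4399 and 3792 for Hist1h2be. Hist4h4 averaged 444 in Anaef and 411 in WT, against 5071 and 3719 for Hist1h4d. The total RNA levels and the ratios are not scaled by length. Annotated exons cover 2620 bases in Hist2h2be and 4446 in Hist1h2be, and 2863 in Hist4h4 and 1138 in Hist1h4d. The part of transcript length in the low ratios was not tested. Hist2h2be and Hist4h4 both carry a hexamer at the annotated end. They are among 14 of the 55 members with one, whose median log2 ratio was 8.48 in Anaef and 8.38 in WT. Both also share few words with other genes, 22.6% of 28-base words in Hist2h2be and 2.46% in Hist4h4. The part of shared words in the ratio was not tested. The 8 members with under 50% shared words that passed on total RNA had a median log2 ratio of 6.58 in Anaef and 7.69 in WT, beside 8.66 and 8.59 over all 55, and all 8 were called higher in RPF in both genotypes. Hist2h4 and Hist1h4d, both also chosen after their values were seen, came next among the H4 rows, with log2 ratios of 6.49 and 6.97 in Anaef and 6.55 and 6.68 in WT.

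Over the 55 members, medians by annotated transcript end differed by less than 1 log2 unit, with no test. The 20 with the stem-loop in the last 100 annotated bases had a median log2 ratio of 8.77 in Anaef and 8.91 in WT. The 35 without it there had 8.49 and 8.26. This split follows the annotated ends, not the presence of the stem-loop. Among the 35, Hist1h1c and Hist1h4c hold it far from a long annotated end, and Hist1h4k has 0 bases annotated after the stop codon. The 14 members with a hexamer in the last 50 bases that passed in total RNA had a median log2 ratio of 8.48 in Anaef and 8.38 in WT, and the 41 without one had 8.70 in both genotypes. Members with a transcript of at least 1000 bases had a median of 8.11 in Anaef and 8.10 in WT (n = 15), against 8.81 and 8.69 for shorter ones (n = 40). Hist3h2a was the 1 member lower in RPF. It had no RPF count in any pool. Its total RNA level was 13.2, 1.10, 7.01 and 4.50 CPM in Anaef and 2.98, 8.82, 0.475 and 3.33 in WT. With 3 counts as the floor, the RPF counts of this row were at least 20.97-fold lower than total RNA in Anaef and at least 29.7-fold lower in WT. All of its coding words also occur in a transcript of Trim17, so this 0 sets no limit on the footprints of the gene. Hist3h2a is the lowest value fitted or at that bound, so the member median is 8.66 in Anaef and 8.59 in WT either way.

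Replacement histones gave lower ratios than most members. Their median log2 ratio was 0.95 in Anaef and 1.01 in WT, with 4 of 9 tested called higher in RPF in Anaef and 6 of 10 in WT, and 2 called lower in each. H3f3a, 1 of the genes encoding H3.3, had 1107 and 1420.0 RPF CPM in Anaef and 836 and 848 in WT. Its total RNA level was 81.3, 169.7, 144 and 131 CPM in Anaef and 85.4, 142, 111 and 119 in WT, so it was abundant in both assays. The log2 ratio was 2.51 ± 0.27 in Anaef and 2.16 ± 0.20 in WT. H3f3b had ratios of 3.80 and 3.50 and H2afj, an H2A variant gene, of 3.69 and 2.82. H2afx, the stem-loop carrier of the list, had the highest ratio of it, 5.28 ± 0.27 in Anaef and 4.56 ± 0.18 in WT (edgeR adjusted p = 4.09e-06 and 2.77e-06), with 329 and 397 RPF CPM in Anaef and 301 and 274 in WT. H2afz was lower in RPF, with log2 ratios of -1.20 in Anaef and -1.85 in WT. The genes listed as S phase genes are polyadenylated, and not all of them peak together with histone mRNAs. Their median log2 ratio was 1.95 in Anaef and 1.75 in WT (33 tested). Mcm4, a replicative helicase subunit, had 2.79 and 2.86 and Pcna, the polymerase clamp, 1.84 and 1.75.

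In total RNA, no member was called different between Anaef and WT. Of 55 tested, 0 passed by edgeR's quasi-likelihood test and by DESeq2, and 0 reached an unadjusted p under 0.05 by edgeR; of all 17876 genes, 0% were called higher and 0.0224% lower, and 2.73% were higher and 2.89% lower at an unadjusted p under 0.05. The median log2 difference was 0.17 with 36 of 55 values above 0, beside 0.01 over all genes tested. In 0 of 55 members did all 4 Anaef libraries lie above or below all 4 WT libraries, beside 1.58% of all genes above and 2.01% below. The errors were wide at these counts. Hist2h2ab, an H2A gene of the Hist2 cluster, had the smallest p, with 4.33, 0.207, 0.710 and 0.200 CPM in Anaef and 0.453, 0.305, 0 and 0.240 in WT. The Anaef value rested on replicate 5, the other Anaef libraries overlapped WT, and the log2 difference was 2.32 ± 1.12 (edgeR adjusted p = 0.896). Hist1h2ba, an H2B gene known from testis, and Hist1h2bl followed with 1.18 ± 0.80 and 1.17 ± 0.85. On the low side were Hist2h3b at -1.20 ± 0.70, Hist1h2af at -0.61 ± 0.54 and Hist2h2be at -0.30 ± 0.27, with edgeR adjusted p between 0.916 and 0.965.

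Anaef replicate 5 held the highest value of the 8 libraries for 13 of 14 H2B rows, 13 of 13 H4 rows and 9 of 16 H2A rows, but for 0 of 9 H3 rows. Hist1h2bg had 7.24 CPM in that library and 0.448, 1.58 and 0.741 in the other Anaef libraries, against 0.506, 1.07, 0.633 and 2.84 in WT. All members together summed to 209.7 CPM in replicate 5, to 54.6 to 104 in the other Anaef libraries and to 80.1 to 122 in WT. Without replicate 5 the median log2 difference of the members was -0.33, that of the H2B rows -0.35 in place of 0.85, and that of the H4 rows -0.32 in place of 0.11. The direction of these class medians in total RNA therefore rested on 1 library. S phase genes did not stand out there, with 482 CPM in replicate 5, 470.3 to 554 in the other Anaef libraries and 485 to 608 in WT.

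**Figure D3:**
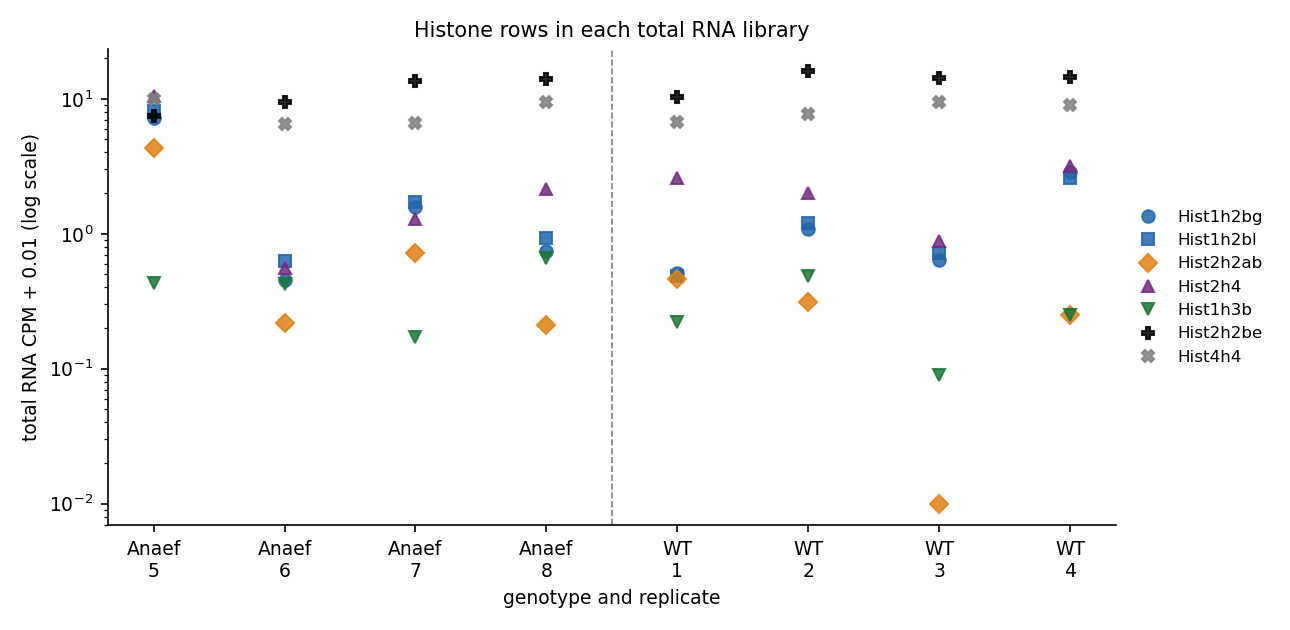
Total RNA CPM plus 0.01 (log scale) of 7 histone genes in each of the 4 Anaef libraries (left) and 4 WT libraries (right). Hist1h2bg, Hist1h2bl, Hist2h2ab and Hist2h4 are highest in Anaef replicate 5, Hist1h3b is not, and Hist2h2be and Hist4h4 have the highest CPM of the 7 in every library but Anaef replicate 5.

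In footprints, histone rows leaned higher in Anaef, but edgeR called none of them with 2 pools a genotype. Of 61 members tested, 0 passed by edgeR, as did 0 of all 9710 genes (0%). DESeq2 called 12 members higher, beside 0.721% of all genes, and edgeR without the filter on low counts called 3, beside 0.863%. At an unadjusted p under 0.05, 17 members were higher by edgeR, beside 4.92% of all genes higher and 6.93% lower. The median log2 difference of the members was 0.32, beside 0.01 over all genes tested, and 58 of 61 values were above 0. Without Anaef pool 4B the members' median was 0.18, and without Anaef 3B 0.41. In 47 of 61 rows both Anaef pools lay above both WT pools, beside 22.3% of all genes, and in 0 rows both lay below, beside 22.5%. The rows share reads and pools, so these counts are not independent. Among the members with under 50% shared words, 8 of 11 values were above 0, 2 of 11 had both Anaef pools above both WT pools, and the median was 0.11. The part of shared reads in this difference was not tested.

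The H3 rows were the most uniform. All 11 tested were higher at an unadjusted p under 0.05 by edgeR, beside 4.92% of all genes. All 11 had both Anaef pools above both WT pools, beside 22.3% of all genes. The median log2 difference was 0.45 (0.39 to 0.52). Of the 12 DESeq2 calls 11 were H3 rows, beside 0.721% of all genes called higher by DESeq2. The H3 rows share most of their words, so these are not 11 separate observations. Hist2h3b had 467 and 439 CPM in Anaef and 305 and 327 in WT, a log2 difference of 0.52 ± 0.13 (edgeR adjusted p = 0.344). Hist2h3c2 had 473 and 456 CPM in Anaef and 317 and 337 in WT, and Hist1h3g 926 and 1013 in Anaef and 670.4 and 704 in WT, with log2 differences of 0.51 ± 0.13 and 0.50 ± 0.13. In these 3 genes the pools of a genotype differed by less than the genotypes did. By DESeq2 the adjusted p was 0.00277 for Hist2h3b and 0.00293 for both others. Leaving out each pool in turn kept the H3 median between 0.40 and 0.50, with all 11 values above 0 each time. The polyadenylated H3.3 genes had log2 differences of the same size, 0.59 ± 0.16 for H3f3a and 0.53 ± 0.20 for H3f3b (edgeR adjusted p = 0.344 and 0.400).

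**Figure D4:**
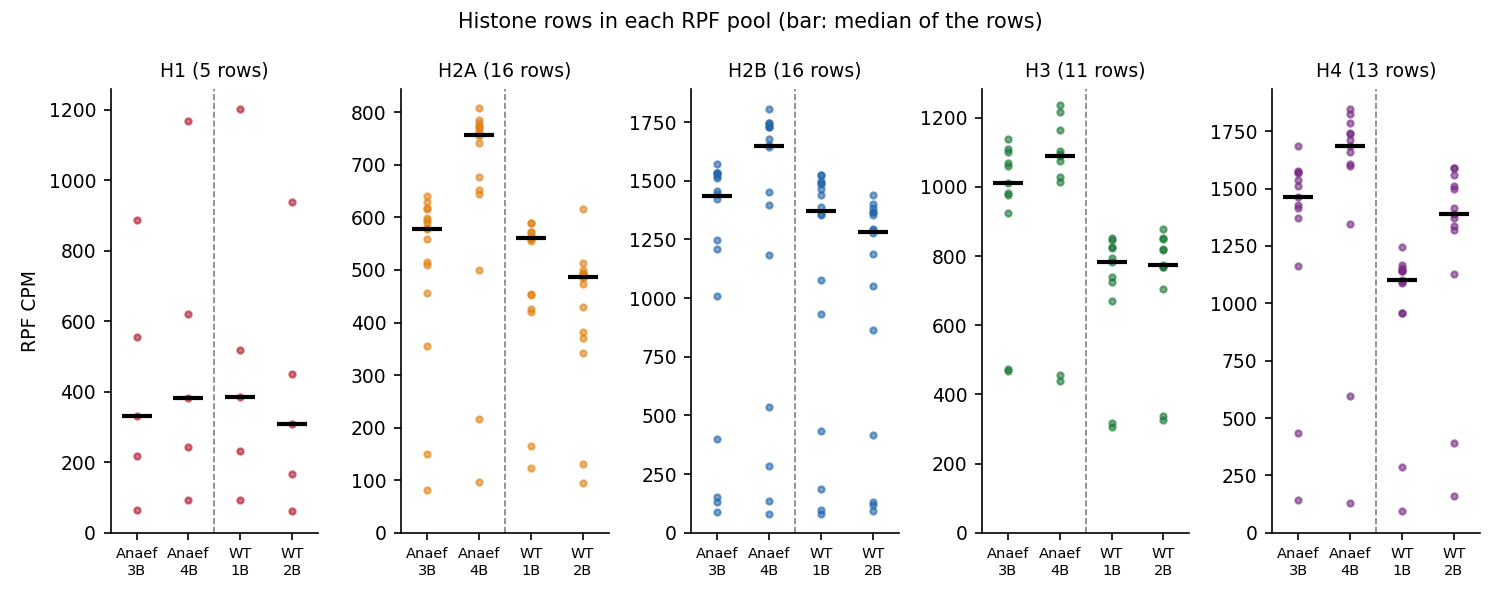
RPF CPM of each histone row (points) in the 2 Anaef pools (left of the dashed line) and the 2 WT pools (right), by class, with a bar at the median of the rows; axes start at 0 and differ between classes. The H3 rows do not overlap between genotypes row by row, while in H2A, H2B and H4 Anaef 3B lies close to 1 of the WT pools.

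The other classes depended more on single pools. H2A rows had a median log2 difference of 0.37, which ranged from 0.14, without Anaef pool 4B, to 0.54, without Anaef 3B, as each pool was left out. H4 rows had a median of 0.32, which ranged from 0.14, without WT 1B, to 0.51, without WT 2B. H2B rows had a median of 0.20, which ranged from 0.08, without Anaef 4B, to 0.30, without Anaef 3B. The H1 rows, the least shared, had a median of 0.04, which was -0.08 without Anaef 4B, -0.11 without WT 2B, 0.24 without Anaef 3B and 0.30 without WT 1B. Hist1h1c had 886 and 1169 CPM in Anaef and 1202 and 937 in WT, so the genotypes overlapped, and its log2 difference was -0.06 ± 0.19. Hist1h2aa had 81.4 and 96.3 CPM in Anaef and 123 and 94.2 in WT, a difference of -0.29 ± 0.19. Hist2h2be, shown above, had -0.01 ± 0.17, and none of the 3 passed (edgeR adjusted p = 0.935, 0.579 and 0.981). Hist1h2an had 515 and 677 CPM in Anaef and 419 and 383 in WT and was the H2A row called higher by DESeq2 (log2 difference 0.57, adjusted p = 0.0256), against 0.344 by edgeR; it was named after its values were seen.

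No member was called for a change in footprints relative to total RNA between the genotypes. By edgeR's interaction test 0 of 62 passed, with 4 at an unadjusted p under 0.05, beside 0% of 19031 genes called and 1.59% higher and 1.76% lower at an unadjusted p under 0.05; DESeq2 also called 0. Hist2h3b had the smallest p, with an interaction of 1.83 ± 0.64 on the log2 scale, followed by Hist1h2af with 1.06 ± 0.45. The fitted value of Hist1h1b rests on its 0 counts in Anaef total RNA and is not given. The negative values with the smallest p included Hist2h2ab at -1.80 ± 1.34 and Hist1h2ba at -0.87 ± 0.79. Both had the high Anaef replicate 5 in the total RNA. Hist2h2bb was also on this side, with 0 counts in WT total RNA. The edgeR adjusted p of those given was 1.00. The median over the 62 members was 0.21, beside 0.01 over all genes, and it was 0.56 without Anaef total RNA replicate 5 and -0.01 without WT total RNA replicate 2. The median over the H2B rows was -0.58, and 0.54 without that Anaef library.

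**Figure D5:**
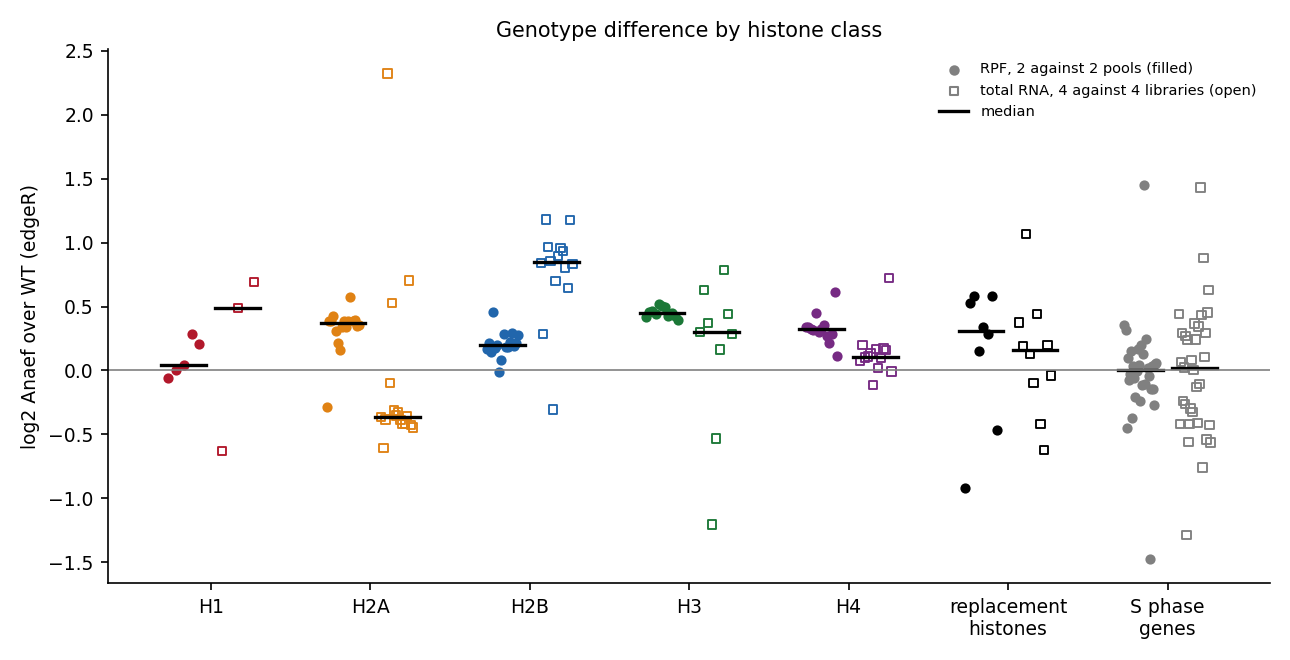
Log2 difference of Anaef over WT (edgeR) for each gene by histone class, with replacement histones and S phase genes; filled circles are RPF (2 against 2 pools), open squares total RNA (4 against 4 libraries), bars medians. In RPF the H3 rows lie between 0.39 and 0.52; in total RNA the H2B rows lie high, at a median of 0.85 that was -0.35 without Anaef replicate 5.

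Of the genes that make and handle histone mRNA, none was called different between genotypes. Slbp, the stem-loop binding protein, had 117 and 75.4 RPF CPM in Anaef and 117 and 95.4 in WT, a log2 difference of -0.14 ± 0.24 in RPF and 0.08 ± 0.28 in total RNA. Npat, the coactivator of histone gene transcription, had 57.6 and 64.2 RPF CPM in Anaef and 62.9 and 58.3 in WT, with differences of 0.01 ± 0.17 and 0.16 ± 0.25. Of 19 genes for histone mRNA processing and turnover, 0 of 18 tested in RPF and 0 of 19 in total RNA passed by edgeR, with 1 in each assay at an unadjusted p under 0.05 and median log2 differences of 0.05 and 0.07. The smallest p were those of Casp8ap2 (0.42 ± 0.17), the scaffold Sympk (0.35 ± 0.16) and Lsm10, part of the U7 particle (0.89 ± 0.51), in RPF, and of its partner Lsm11 (-0.79 ± 0.34) in total RNA. Of 19 histone chaperones and deposition factors, 0 passed in either assay by edgeR, with 1 in RPF and 0 in total RNA at an unadjusted p under 0.05 and medians of -0.03 and 0.10. In RPF the smallest p were those of the histone binders Rbbp4 (-0.30 ± 0.12) and Rbbp7 (-0.30 ± 0.13) and of Chaf1a, a subunit of chromatin assembly factor 1 (-0.89 ± 0.41). Of 11 replacement histones, 0 of 8 tested in RPF passed by edgeR, with 4 at an unadjusted p under 0.05 and a median of 0.31. Among them H2afy, the macroH2A gene, had 108 and 90.7 CPM in Anaef and 177 and 199 in WT (-0.92 ± 0.16, edgeR adjusted p = 0.344). H2afz stood on the other side with 0.59 ± 0.18.

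S phase genes showed no such lean in RPF. There the 33 genes summed to 2499.8 and 2697 CPM in the Anaef pools and 2820.4 and 2339.8 in the WT pools, with a median log2 difference of 0.01, 0 of 30 called by edgeR, and 1 higher and 1 lower at an unadjusted p under 0.05. In total RNA the median was 0.02 and 0 of 33 were called. Pcna and Mcm4, the most abundant of them, had differences of 0.02 ± 0.12 and 0.04 ± 0.14. Tyms (1.45 ± 0.51), Ccne2 (-1.47 ± 0.54) and Uhrf1 (0.32 ± 0.20) had the smallest p. Markers of other cells gave the following levels. The 17 B and plasma cell markers summed to 7303 and 2604 CPM in Anaef RPF and 23289 and 11576 in WT RPF, and to 1115 to 1927 CPM in Anaef total RNA and 1877 to 6193 in WT total RNA. Of 16 tested in total RNA 1 was called, Igha, which was lower in total RNA (-1.98 ± 0.22, edgeR adjusted p = 0.0268), and of 11 tested in RPF 0 were called and 8 were lower at an unadjusted p under 0.05. The 13 myeloid and erythroid markers summed to 21.2 and 44.7 CPM in Anaef RPF and 63.3 and 42.2 in WT RPF, so the genotypes overlapped there. In total RNA they did not overlap, with sums of 12.4 to 16.3 CPM in Anaef and 19.7 to 29.3 in WT. Of 5 tested in each assay, edgeR called 0, and 2 in each were lower at an unadjusted p under 0.05. Of the B and plasma cell markers 0 were at 0 in all libraries. In bulk samples, fewer cells of a type and less RNA per cell cannot be told apart, and the part of these cells in the histone values was not tested.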

How the data were processed

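Gene counts were used as the authors deposited them, 1 row per gene for 8 total RNA and 4 RPF libraries. Alignment used TopHat 1.4.1 and Bowtie (given there as 0.2.17) on GRCm38, per the submitters' processing notes; the counting tool, its annotation and the masking of RPF are not stated. Total RNA was taken with an oligo(dT) bead kit and read as single ends of 50 bases, per the labels' protocols.

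Samples were grouped by genotype and assay. From the counts, 5 comparisons were fitted over all genes that passed filterByExpr, with edgeR 4.0.16 (TMM scaling, quasi-likelihood F test, R 4.3.3) and Benjamini-Hochberg adjustment at 0.05: Anaef over WT in each assay, their interaction, and RPF over total RNA in each genotype. SE is the log2 difference divided by the square root of F. The code was tested on simulated data. Alternatives were DESeq2 1.42.0, limma-voom (limma 3.58.1), other size factors and filters, protein-coding genes alone, leaving out each library and, chosen after seeing the data, leaving the histone rows out of the library sizes. Levels are CPM, counts per 1000000 of TMM-scaled library size. Sequences and coding lengths came from GENCODE M21, and gene ends and newer symbols from RefSeq on GRCm38.p6, in which all 65 members matched.

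The members, lists and tests were chosen with earlier results of these data known. Named members were the 3 with the highest mean RPF CPM in each class, the 5 largest changes each way among those called, and the 3 with the smallest p each way in each genotype comparison; any other is said to be chosen after its values were seen.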

Additional observations from a re-analysis of the deposited data

Results flagged for a closer look

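In total RNA, 54 groups of 4 libraries were checked for 1 library standing apart from the other 3 by Dixon's criterion, which chance meets in about 1 in 20 groups. It was met in 6, each time by Anaef replicate 5 at the high end. That library had 1.48 CPM of Hist1h2ba, 8.34 of Hist1h2be, 7.24 of Hist1h2bg and 8.08 of Hist1h2bl, all H2B genes. It had 4.33 CPM of Hist2h2ab and 10.4 of Hist2h4, an H2A and an H4 gene. The H2B rows share most of their sequence, so these are not separate observations.

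A histone row outside the comparisons also held footprints. Hist1h2al, annotated as a pseudogene and so not a member, had 1537 and 1541 RPF counts in the Anaef pools and 2862 and 1816 in the WT pools, 7756 in all. Hist1h2aj and Hist3h2bb-ps, the other histone pseudogene rows, had total RNA counts but no RPF count in any pool.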

How the results depend on the processing

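No paired analysis was possible because the genotypes share no replicate number within an assay. Of 636 values under alternatives for 46 results, 616 kept their direction and their side of the threshold, or moved little. In RPF, members called higher in Anaef were 12 with DESeq2 (0.721% of all genes) and 3 without the filter on low counts (0.863%), against 0 in the reported comparison; Hist1h3g was called in both, and Hist2h3b and Hist2h3c2 with DESeq2. The count of members lower in RPF than in total RNA was 0 with limma-voom in Anaef and 0 in WT, against 1, Hist3h2a (adjusted p = 0.206 in Anaef and 0.0661 in WT). In WT it ranged from 0, without pool 1B (adjusted p = 0.0600), to 1 as each library was left out. The cause of these moves was not tested.

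Leaving out each library, the median log2 ratio of RPF to total RNA over the 55 members, 8.66 in Anaef with all libraries, ranged there from 8.34, without total RNA replicate 6, to 9.20, without replicate 5. The direction turned for 4 single genes that passed no test. Hist1h2bl in total RNA ranged from -0.19, without Anaef replicate 5, to 1.81. In RPF, Hist1h1c ranged from -0.28 to 0.13, being 0.13 without Anaef 3B and 0.12 without WT 1B, and Hist2h2be from -0.13 to 0.10, being 0.06 without Anaef 4B and 0.10 without WT 2B. The interaction of Hist2h2bb ranged from -3.23 to 0.26, the highest without Anaef total RNA replicate 6. The median over all genes in the interaction was 0.32 with DESeq2 and 0.36 with limma-voom, where the members had 0.20 and 0.30, so relative to all genes the members did not lean higher there. Depth limits the total RNA values, where the median member had 27 counts a library.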
